A study of Mus musculus with 6 samples.

Results

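Lamina contacts of the mouse autosomes were compared between fibroblasts treated with RNAi against lamin C and fibroblasts treated with RNAi against lamin B1. The members were the GATC fragments of chromosomes 1 to 19, matched by chromosome, start and end in the mm9 build. They number 5972542 of the 6581229 fragments in each file, and they come from 4 of the 6 libraries of the series. All cells were mouse embryonic fibroblasts (MEFs) of the C57BL/6 strain with a wild type genotype. A lentivirus delivered the shRNA, puromycin removed cells without it, and a second lentivirus then delivered Dam alone or a Dam fusion. The LmnC RNAi side joins 1 Dam-only library and 1 Dam-LmnB1 library. The LmnB1 RNAi side joins 1 Dam-only library and 1 Dam-LmnA library. The targeted lamin and the fused lamin therefore change together and cannot be told apart. Sample titles give the fusions and the sample descriptions give the RNAi targets, while the treatment text names neither LmnB1 as a target nor Dam-LmnA. Each side is 1 map with no replicate, so no p-value is given and every difference is one between these maps. The depletion of each lamin and the fibroblast identity could not be checked, since the files hold DNA contacts and no RNA or protein.

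Lamins are the intermediate filament proteins of the nuclear lamina, the meshwork under the inner nuclear membrane. Lamins A and C are splice forms of the Lmna gene and occur at the lamina and in the nuclear interior, whereas lamin B1, from Lmnb1, carries a lipid anchor and stays at the membrane. Lamina-associated domains (LADs) are long, gene-poor and mostly silent stretches of chromosome that touch this meshwork. In DamID, the bacterial methyltransferase Dam is fused to a lamin and marks GATC sites near it, and freely diffusing Dam in parallel cells gives the background. Fusion reads over Dam-only reads, on a log2 scale, are the signal. It is a mean over many cells, so contact in fewer cells and weaker contact per cell cannot be told apart. A value above 0 means that a fragment was read more often with the fusion, apart from a constant that each map carries. That constant was 0.21 after RNAi of LmnC, and -0.15 after that of LmnB1. The other map of the series, from LmnA RNAi and Dam-LmnB1, shares no library with either side and serves below as an outside reference.

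Most fragment length was read in both libraries of a map. It was 79.9% of fragment length after LmnC RNAi and 79.0% after LmnB1 RNAi. Short fragments were often read in 1 library only, and such single-library fragments carry extreme values because the ratio was taken with a very small number in place of 0 reads. They were 12.9% fusion-only and 12.1% Dam-only fragments after LmnC RNAi, against 14.0% and 10.3% after LmnB1 RNAi. The single-library fragments held 1773008 fusion and 2628455 Dam-only reads after LmnC RNAi, and 1876055 and 1776241 after LmnB1 RNAi. The full depth of a library is unknown, since the files give ratios. Values are therefore given with all fragments and again without the single-library fragments. The 135 stretches of 10 kb or more without any fragment (21.6 Mb) were removed from both LAD lists.

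Most LAD sequence was the same in both maps. LADs held 57.7% of fragment length after LmnC RNAi (SD 4.13 over 19 chromosomes) and 58.6% after LmnB1 RNAi (SD 4.48). The difference was -0.865 percentage points, with an SD of 1.52 points over single chromosomes. Both lists contained 1299 Mb, or 94.0% of all LAD length in the LmnC RNAi list and 92.6% in the other. A further 82.6 Mb lay in LmnC RNAi LADs alone and 103 Mb in LmnB1 RNAi LADs alone. The Jaccard index, the length in both lists over the length in either, was 0.875 (SD 0.0211 over chromosomes). Lists as deposited gave 0.864, and there LmnC RNAi LADs run across 18.9 Mb of fragment-free sequence and LmnB1 RNAi LADs across 0.189 Mb. Those fragment-free Mb carry no signal in either map.

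Chromosomes differed in which map had the larger share. The share was larger after LmnB1 RNAi on 14 of 19 chromosomes and larger after LmnC RNAi on 5. Chromosome 3 had 63.7% after LmnB1 RNAi and 60.5% after LmnC RNAi, and chromosome 15 had 57.5% and 54.3%. In the other direction chromosome 7 had 62.0% in the LmnC RNAi map against 59.9% in the LmnB1 RNAi map, and chromosome 17 had 56.2% and 54.5%. The maps overlapped best on chromosome 7 (Jaccard 0.919) and least on chromosome 15 (0.835). On chromosome 7 the LmnC RNAi list had 20 stretches of its own of at least 100 kb and the LmnB1 RNAi list had 6. On chromosome 15 these were 7 and 19. Chromosome 11, which is rich in genes, had the lowest share in both maps, at 46.2% and 46.4%.

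**Figure D1:**
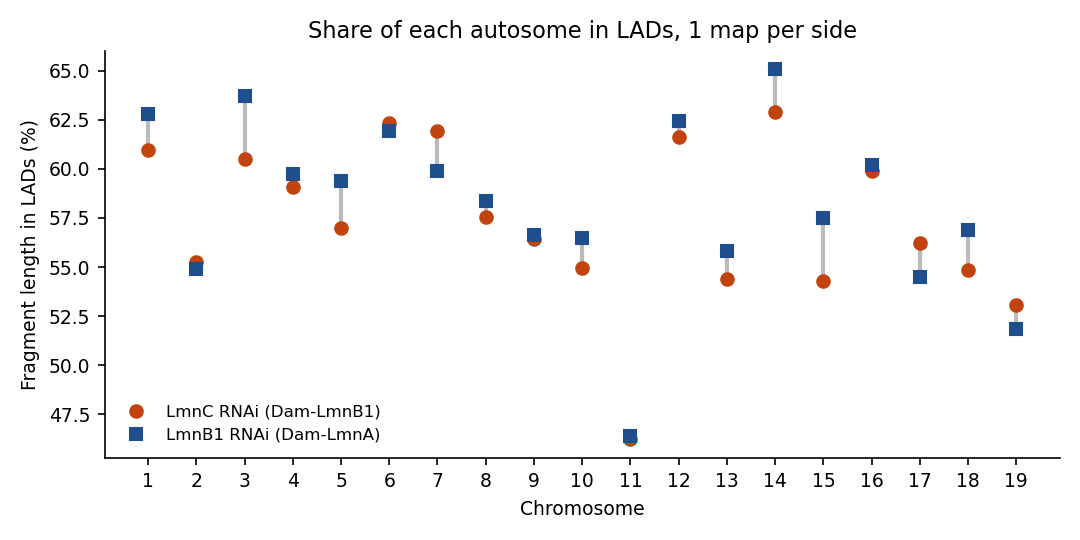
Percent of fragment length in LADs (vertical axis, not starting at 0) on chromosomes 1 to 19 (horizontal axis), circles for LmnC RNAi and squares for LmnB1 RNAi, 1 map each. The squares lie higher on 14 of 19 chromosomes, and the widest gaps are on chromosomes 3 and 15, where LmnC RNAi minus LmnB1 RNAi was -3.20 and -3.18 percentage points.

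LADs without a counterpart in the other list were mostly short. After LmnC RNAi there were 1789 LADs with a median length of 429 kb, against 1652 with a median of 494 kb after LmnB1 RNAi. The lists as deposited held 1699 and 1644, so removing fragment-free sequence widened this gap. Of the LmnC RNAi LADs 147 (8.22%) had no base in a LmnB1 RNAi LAD, and 121 LmnB1 RNAi LADs (7.32%) had none in a LmnC RNAi LAD. Among LADs under 300 kb these shares were 19.9% of 664 and 17.3% of 525. Among LADs of 1 Mb or more they were 0.253% of 395 after LmnC RNAi, which is 1 LAD, and 0% of 408 after LmnB1 RNAi. Long LmnC RNAi LADs had 97.3% of their length in the other list, and long LmnB1 RNAi LADs 96.5%. Joined LADs were more frequent after LmnB1 RNAi, where 230 LADs spanned 2 or more LmnC RNAi LADs, against 137 in reverse.

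The sequence that only 1 list contained was mostly made of pieces of 100 kb or more. Such stretches numbered 291 (56.4 Mb) for LmnC RNAi alone and 311 (71.1 Mb) for LmnB1 RNAi alone. Their median lengths were 157 and 167 kb. Whole LADs made up 136 and 120 of them, extensions at the edge of a shared LAD 113 and 130, and bridges between neighbouring LADs of the other list 42 and 61. Pieces of at least 300 kb were fewer for LmnC RNAi alone, at 30 (14.2 Mb), than for LmnB1 RNAi alone, at 64 (30.7 Mb). A change of the length limit moved these counts by more than 1.5 times. With a limit of 200 kb they were 88 and 123.

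Signal in these stretches differed between the directions. In the stretches of the LmnB1 RNAi list alone, the median log2 ratio was -0.98 after RNAi of LmnC, and 0.05 after that of LmnB1. The median difference was -1.05 (interquartile range -1.37 to -0.74), and the LmnC RNAi signal was lower in 306 of 311. In the stretches of the LmnC RNAi list alone, the medians were -0.36 in the LmnC RNAi map against -0.31 in the LmnB1 RNAi map. Their median difference was -0.0033 (interquartile range -0.35 to 0.28), and the LmnC RNAi signal was higher in 144 of 291 and lower in 147. All autosomal bins of 100 kb had a median difference of -0.51, so sequence of the LmnC RNAi list alone stood above that level without standing above the LmnB1 RNAi value. With the median bin of either map set to 0, the map that called the LAD was higher in 245 of 291 and 279 of 311 stretches. Without single-library fragments and without centring it was higher in 89 of 291 and 291 of 311, and with both steps in 174 and 255. The stretches were picked from lists made on the same signal, so these counts describe them and support nothing.

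Both kinds of stretch lay in LADs of the LmnA RNAi map, which had no part in their choice, for more of their length than the autosomes as a whole. LADs of that map covered 80.6% of the length of the LmnC RNAi stretches and 83.8% of the length of the LmnB1 RNAi stretches. Over all autosomal fragments they covered 66.8% of the length. They covered 98.7% of sequence in LADs of both lists and 18.6% of sequence in neither. Of the LmnC RNAi stretches 156 of 291 lay in LmnA RNAi LADs for more than 99% of their length and 33 for less than 1%. For the LmnB1 RNAi stretches these were 168 of 311 and 27. The median LmnA RNAi signal was 0.65 in the former and 0.58 in the latter stretches (0.05 and 0.01 without single-library fragments). Bridges of the LmnB1 RNAi list had the lowest LmnA RNAi signal of the 6 classes, at 0.32, and 75.8% of their length was in LmnA RNAi LADs.

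The longest stretches of the LmnB1 RNAi list alone all had a lower signal after LmnC RNAi. The longest was a LAD edge at chr12:95289241-96700928 (1.41 Mb), whose mean log2 value was -0.99 ± 0.10 after RNAi of LmnC, and 0.20 ± 0.08 after that of LmnB1 (SE over 3415 fragments). It had 327 fusion-only and 427 Dam-only fragments after LmnC RNAi, and 448 and 309 after LmnB1 RNAi, so the kind of library that read more fragments turned. Over all autosomal fragments these were 12.9% and 12.1% after LmnC RNAi, and 14.0% and 10.3% after LmnB1 RNAi, so the balance of all fragments differed too. A LAD edge at chr5:11959749-13104612 (1.14 Mb) showed the same turn, with 270 against 341 and then 359 against 242. The stretch with the widest gap among these was a whole LAD at chr13:102539376-103334961 (0.796 Mb). It had -1.47 ± 0.12 in the LmnC RNAi map against 0.14 ± 0.10 in the LmnB1 RNAi map, and -0.75 and -0.15 without single-library fragments. A whole LAD at chr18:68489131-69221093 (0.732 Mb) had -1.48 ± 0.12 and -0.01 ± 0.10, and its LmnA RNAi signal was 0.67 ± 0.11. A LAD edge at chr10:37525126-38239255 (0.714 Mb) had -1.40 ± 0.13 and -0.15 ± 0.11, against 1.13 ± 0.13 after LmnA RNAi. A whole LAD at chr15:56704137-57390483 (0.686 Mb) had -0.84 ± 0.13 and 0.56 ± 0.12. The longest bridge, at chr5:16755417-17293906 (0.538 Mb), had -1.61 ± 0.15 and -0.20 ± 0.12, and here the LmnA RNAi value of -0.27 ± 0.13 was near the LmnB1 RNAi value. Whole LADs on chromosome 14 from 77818415 (0.847 Mb) and chromosome 8 from 70767968 (0.767 Mb) differed by -1.16 ± 0.13 and -1.36 ± 0.15. In all 9 the LmnC RNAi value stayed lower without single-library fragments, with differences from -0.40 on chromosome 12 to -0.60 on chromosome 13. With each map centred as well, these ran from -0.26 to -0.46. The stretches were picked from lists made on the same signal, so their direction supports nothing.

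The longest stretches of the LmnC RNAi list alone had values near or below those of the LmnB1 RNAi map. A whole LAD at chr6:148184171-149253294 (1.07 Mb) had 311 fusion-only and 319 Dam-only fragments after LmnC RNAi, and 298 and 287 after LmnB1 RNAi. Its mean was -0.34 ± 0.08 against 0.01 ± 0.08, and its LmnA RNAi value was 1.35 ± 0.09. A whole LAD at chr2:92301845-93292883 (0.991 Mb) had -0.72 ± 0.10 after RNAi of LmnC, and -0.51 ± 0.08 after that of LmnB1, a difference of -0.21 ± 0.13. Another at chr2:127115846-127887204 (0.771 Mb) had 0.00 ± 0.13 and -0.05 ± 0.10, which is within these errors. A LAD edge at chr15:36984352-37723886 (0.740 Mb) had -0.98 ± 0.12 and -0.34 ± 0.10. As deposited, the map that called it thus had the lower signal by more than the fragment error. Whole LADs at chr10:42751898-43412855 (0.661 Mb) and at chr9:122440530-123016477 (0.576 Mb) differed by -0.35 ± 0.15 and -0.39 ± 0.16. A whole LAD at chr17:86583495-87143940 (0.560 Mb) was the one with the largest value in favour of LmnC RNAi, at -0.70 ± 0.12 against -0.88 ± 0.11, a difference of 0.18 ± 0.16. The longest bridge, at chr1:21447915-22004465 (0.557 Mb), had -0.25 ± 0.13 and 0.10 ± 0.12. After centring each map, 7 of these 8 were higher after LmnC RNAi. The chromosome 15 edge then had a difference of -0.17 ± 0.16, about as large as its fragment error. Centred and without single-library fragments, only 3 of the 8 were higher, with differences from -0.11 at the chromosome 15 edge to 0.16 at the second LAD on chromosome 2.

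**Figure D2:**
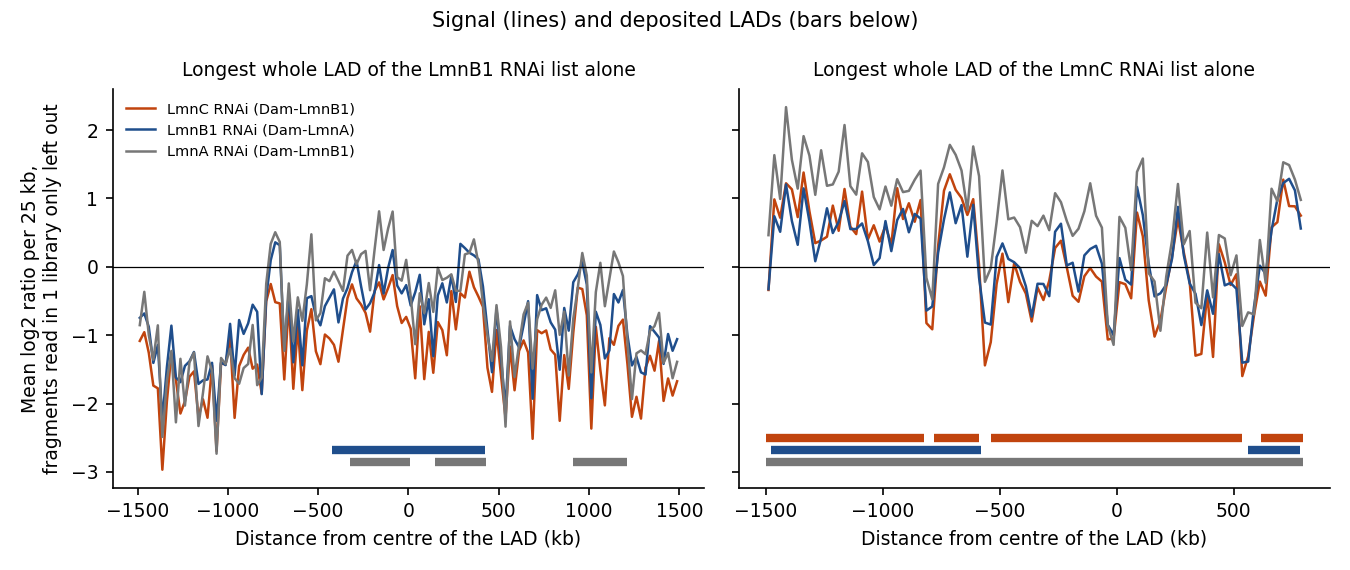
Mean log2 ratio per 25 kb (vertical axis, single-library fragments left out) against distance in kb from the centre of 2 whole LADs, with LADs of each list as bars below. On the left, the chromosome 14 LAD of the LmnB1 RNAi list alone has the LmnC RNAi line lowest (means -0.71 and -0.28), and on the right, the chromosome 6 LAD of the LmnC RNAi list alone has the lines of both maps close together (-0.28 and -0.07) and the lines stop where the chromosome ends.

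Many LAD borders lay at or near the same fragment in both lists. Of 3578 LmnC RNAi borders 39.1% had a LmnB1 RNAi border of the same side within 10 kb, 54.6% within 25 kb and 63.2% within 50 kb. The median distance was 18.8 kb (interquartile range 4.41 to 168 kb). Identical borders numbered 254, including any that arose where fragment-free stretches were cut out of the lists. Among the 2271 borders displaced by up to 100 kb, the LmnB1 RNAi border lay further out in 1199 (52.8%) and further in for the rest. Borders within 10 kb of fragment-free sequence raise the shared part, and without them it was 36.4%.

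At shared borders the signal rose steeply in both maps, and the rise was higher after LmnC RNAi. The 617 borders within 10 kb of each other, at LADs of 400 kb or more in both lists, were aligned midway between the borders. From 100 to 200 kb outside to 100 to 200 kb inside, the mean rose from -1.58 to 1.48 after LmnC RNAi, a rise of 3.06 ± 0.08 (SE over borders). After LmnB1 RNAi it rose from -0.91 to 1.66, a rise of 2.57 ± 0.07. Without single-library fragments the rises were 1.50 ± 0.04 and 1.18 ± 0.03. In the values as deposited, more of the difference lay outside the LADs than inside. These levels carry the constants of the maps, so that split depends on the offset, whereas the rises do not. Without single-library fragments the outer levels were -0.82 and -0.58, and the inner levels 0.68 and 0.60. The LmnA RNAi map, aligned the same way, rose by 2.76 ± 0.08. In each of the 3 maps the signal 20 to 30 kb outside the border was lower than further out, at -2.49, -1.79 and -1.21 after LmnC, LmnB1 and LmnA RNAi. How much of the 200 kb outside these borders fell in neighbouring LADs was not computed. The rise was positive at 91.6% of borders after LmnC RNAi and at 90.8% after LmnB1 RNAi. The borders were taken from the lists of the maps compared, which fixes that the mean rise is positive in both.

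**Figure D3:**
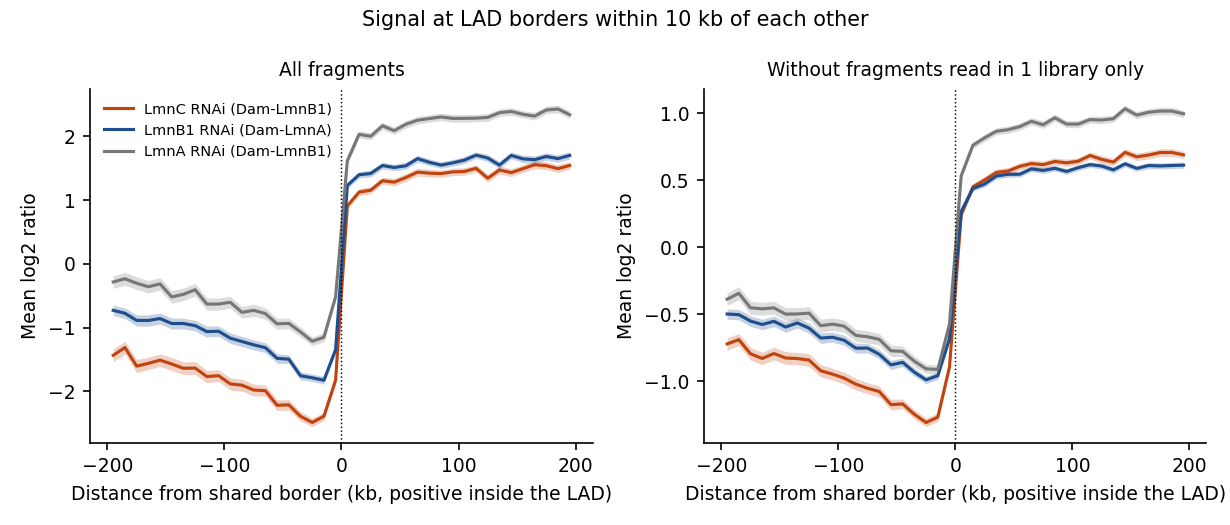
Mean log2 ratio (vertical axis) in 10 kb steps against distance from the border in kb, positive inside the LAD, at 617 borders that the LmnC and LmnB1 RNAi lists place within 10 kb of each other, bands showing the SE over borders. As deposited, the LmnC RNAi line lies lowest outside the LADs and close to the LmnB1 RNAi line inside them. The inner levels were 0.68 and 0.60 in the panel without single-library fragments.

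Signal along the chromosomes followed 1 course in both maps. In the deposited values the LmnC RNAi map was lower in chromatin away from the lamina. Over 23944 bins of 100 kb, Pearson's r was 0.967 and Spearman's rho 0.955, as a description of bins that share libraries, depth and GATC density. As deposited, 50.5% of bins were lower after LmnC RNAi by more than 0.5 on the log2 scale and 4.69% were higher. Without single-library fragments these were 10.4% and 0.601%. This split moved with the offset of the maps. It was 24.3% lower and 19.6% higher once each map was centred, and 16.9% and 16.7% after quantile normalization. Subtracting the constant of each map gave 71.9% lower and 1.07% higher. Single-library fragments held more Dam-only than fusion reads in the LmnC RNAi map and slightly more fusion reads in the other, as given above, and their part in this split was not tested.

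**Figure D4:**
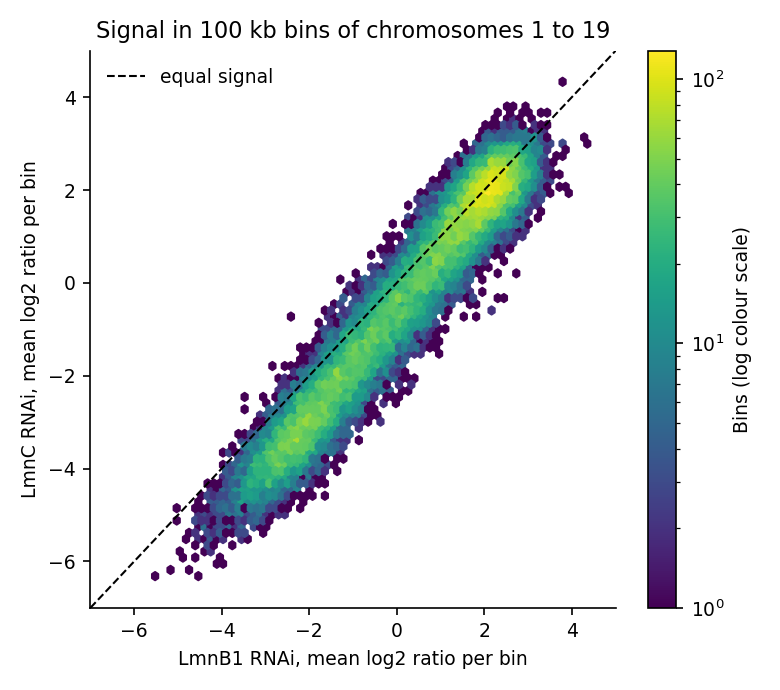
Mean log2 ratio per 100 kb bin after LmnB1 RNAi (horizontal axis) and after LmnC RNAi (vertical axis) over 23944 bins, colour giving the number of bins on a log scale and the dashed line equal signal. As deposited, the cloud lies near the line at high signal and below it at low signal, where the median difference in bins outside both LAD lists was -0.94.

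In the deposited values the LmnC RNAi map lay further below the LmnB1 RNAi map outside LADs than inside them. In the 11617 bins with more than 90% of their span in LADs of both lists, the median was 1.73 in the LmnC RNAi map against 1.90 in the LmnB1 RNAi map, with a median difference of -0.21. In the 7951 bins with less than 10% in either list, the medians were -2.94 and -1.98, with a median difference of -0.94. Of the former bins 30.3% were lower after LmnC RNAi by more than 0.5, and of the latter 79.5%, against 50.5% of all bins. Relative to the median difference of all bins, which removes the offset of the maps, the difference was 0.29 inside LADs of both lists and -0.43 outside. Without single-library fragments the median difference was 0.06 in LADs of both lists and -0.38 outside, and its sign in LADs thus turned. The contrast between these classes was 4.67 after LmnC RNAi (SD 0.138 over chromosomes) and 3.88 after LmnB1 RNAi (SD 0.151). It was larger after LmnC RNAi on 19 of 19 chromosomes. It was 2.25 and 1.78 without single-library fragments, and again larger on 19 of 19. Single-library fragments alone, as log2 of fusion-only over Dam-only fragment numbers per bin, gave contrasts of 4.28 and 3.77, also larger on 19 of 19. These fragments are disjoint from the former, so the wider range of the LmnC RNAi map appeared in both parts of the libraries. The bins were classed by the lists of the maps compared, which fixes that both contrasts are positive.

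The same gradient appeared when bins were ordered by the LmnA RNAi signal, which neither map shares. In the decile of bins with the lowest LmnA RNAi signal, the medians were -3.86 after RNAi of LmnC, and -2.80 after that of LmnB1, with a median difference of -1.05 (interquartile range -1.39 to -0.72). In the fifth decile the median difference was -0.57. In the decile with the highest LmnA RNAi signal the medians were 2.36 and 2.33, with a median difference of 0.01 (interquartile range -0.31 to 0.34). Bins lower after LmnC RNAi by more than 0.5 fell from 87.0% in the lowest decile to 14.8% in the highest, and bins higher by that step rose from 0.0835% to 15.1%. Without single-library fragments the median difference went from -0.40 to 0.20. These values carry the constants of the maps, so the gradient can be read from them but not the sign. Dam-LmnB1 was the fusion of the LmnA RNAi map as well as of the LmnC RNAi map, and the part of the fusion in this gradient was not tested. Bin signals of the LmnA RNAi map correlated with r = 0.954 with the LmnC RNAi map and 0.945 with the LmnB1 RNAi map. They spread more in the LmnC RNAi map (SD 2.22) than in the LmnB1 RNAi map (SD 1.88). An ordering that follows both maps this closely shows such a gradient from the spreads by itself. The gradient is thus no result separate from the wider range of the LmnC RNAi map.

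**Figure D5:**
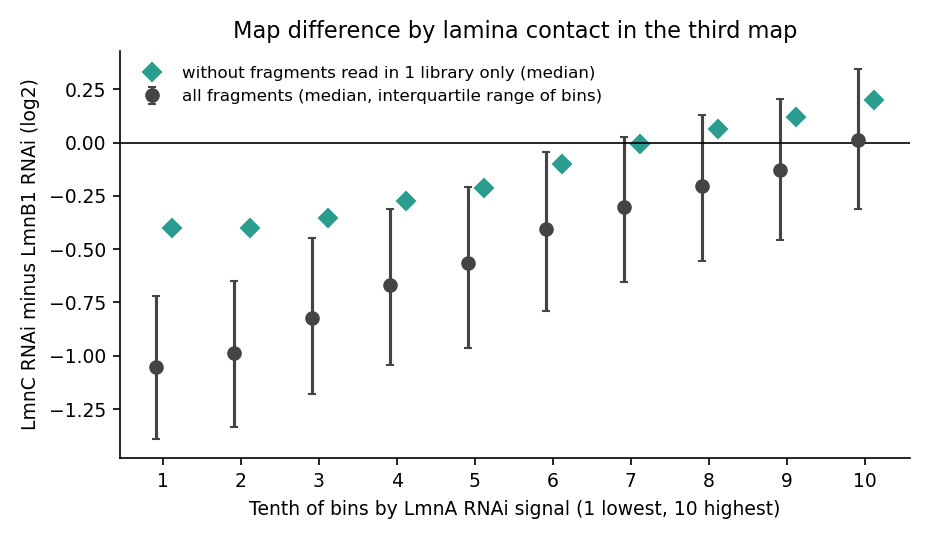
LmnC RNAi minus LmnB1 RNAi signal on the log2 scale (vertical axis) in deciles of the 100 kb bins ordered by LmnA RNAi signal (horizontal axis). Circles are medians over all fragments with the interquartile range of bins, and run from -1.05 to 0.01, and diamonds are medians without single-library fragments, and run from -0.40 to 0.20.

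Single bins with the largest differences lay in both compartments. The largest deficit after LmnC RNAi was at chr5:123500001-123600000, with -4.55 ± 0.50 against -1.64 ± 0.39 (-1.63 and -0.90 without single-library fragments), outside both lists. The next was at chr18:49000001-49100000, inside LADs of both lists, with -0.67 ± 0.36 in the LmnC RNAi map against 2.18 ± 0.32 in the LmnB1 RNAi map (-0.06 and 0.80). The LmnA RNAi value there was 2.21, close to that after LmnB1 RNAi. A bin at chr15:58700001-58800000 had -4.39 ± 0.46 and -1.64 ± 0.31. The largest excesses after LmnC RNAi were all inside LADs of both lists. They lay at chr1:130900001-131000000 (3.01 ± 0.40 against 1.57 ± 0.30), chr7:33900001-34000000 (2.58 ± 0.36 against 1.15 ± 0.30) and chr15:68300001-68400000 (3.41 ± 0.34 against 2.01 ± 0.25). Only the last kept a clear excess without single-library fragments (1.51 ± 0.09 against 1.03 ± 0.09), and the others had 1.00 ± 0.12 against 0.85 ± 0.09 and 0.69 ± 0.09 against 0.56 ± 0.10. The bins were picked for their values, so they illustrate the range and are no test.

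Differences extended over neighbouring bins and faded within a few Mb. Relative to the median of each map, 22.4% of bins were higher after LmnB1 RNAi by more than 0.5 with the same sign without single-library fragments, and 18.2% were higher after LmnC RNAi. The former were 69.2% outside both lists and 13.6% inside both, the latter 3.39% and 81.9%. Of all 23944 bins, 7951 were outside both lists and 11617 inside both. Bin signals also spread more in the LmnC RNAi map (SD 2.22) than in the LmnB1 RNAi map (SD 1.88). The part of this wider spread in the split was not tested. Runs of at least 10 bins higher in this way numbered 13 for LmnB1 RNAi and 6 for LmnC RNAi. The longest run in favour of LmnB1 RNAi was at chr18:54600001-56100000, wholly outside both lists, with means of -3.08 after RNAi of LmnC, and -1.53 after that of LmnB1. A run at chr18:47500001-48600000 was of another kind, with 10 of its 11 bins inside LADs of both lists and means of -0.55 and 0.76. On chr10:96500001-97700000 a run joined 5 bins of the LmnB1 RNAi list alone to 7 outside both lists, at -1.63 and 0.02. The longest runs in favour of LmnC RNAi were at chr12:22800001-24000000 (2.02 against 1.24) and at chr14:3100001-4300000 (2.51 against 1.98), each of 12 bins, of which 11 and 12 were inside LADs of both lists. These runs were found after the values were seen.

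The difference between the maps repeated only in part between separate fragments of the same libraries. The bin difference from odd-numbered fragments correlated with that from even-numbered fragments at r = 0.467, and at 0.722 without single-library fragments. Between a bin and its neighbour these were 0.335 and 0.594, at 1 Mb 0.106 and 0.210, and at 5 Mb 0.00716 and 0.0193. The SD of the difference over bins was 0.63, against 0.38 estimated for fragment sampling from the odd and even sets, and 0.28 against 0.11 without single-library fragments. The step of 0.5 is thus little more than the sampling spread of 1 bin with all fragments. The difference from fragments read in both libraries correlated with that from single-library fragments at r = 0.417, where the levels themselves correlated at 0.955 and 0.951. All of these are descriptions of fragments in 1 pair of libraries per map and say nothing of replicate cultures.

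Within LADs the difference shifted with the density of GATC sites. In bins inside LADs of both lists, the fifth with the fewest fragments had a median difference of -0.33 and the fifth with the most -0.10 (-0.05 and 0.16 without single-library fragments). The fifth with the most was higher on 18 of 19 chromosomes, with and without those fragments. Outside both lists the corresponding values were -0.91 and -0.95 with all fragments, and -0.42 and -0.34 without. Inside LADs of both lists the signal itself also rose from the fifth with the fewest fragments to that with the most. Its median went from 1.32 to 2.11 after LmnC RNAi and from 1.60 to 2.19 after LmnB1 RNAi. The parts of signal level and of GATC density in the shift were not tested. Along the chromosome, mouse autosomes carry the centromere at the low-coordinate end. LAD bins of the first 10 Mb had a median difference of -0.12, those more than 30 Mb from either end -0.27, and those of the last 10 Mb -0.17. The first 10 Mb stood above the middle on 15 of the 18 chromosomes with LAD bins in such a middle and the last 10 Mb on 12, and on 13 and 12 without single-library fragments.

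Single fragments matched between the maps more often the more reads they had. Of the fragments read in 1 library only in both maps, 659411 in all, 74.2% were read in the same kind of library. That share was 61.9% for the 196382 fragments with exactly 1 read in each map, 89.3% for the 212537 with at least 2, and 99.4% for the 38617 with at least 5. In LADs of both lists 18.8% of fragments were fusion-only and 5.70% Dam-only after LmnC RNAi, and outside both lists 4.45% and 21.9%. After LmnB1 RNAi these were 19.7% and 5.09%, and 5.74% and 18.4%. The agreement expected from such balances alone was not computed. Among the fragments that switched, 95430 went from Dam-only after LmnC RNAi to fusion-only after LmnB1 RNAi and 74768 the other way. In sequence of the LmnB1 RNAi list alone the switches were 6745 and 2418, and in sequence of the LmnC RNAi list alone 2650 and 4361. The lists were made on the same signal, so the direction of these 4 counts supports nothing. In LADs of both lists the switches were near balance, at 50842 and 45252. Outside both lists they were 35193 and 22737. Fragments read in both libraries of both maps, 2310474 in all, had r = 0.711 between the maps and a median difference of -0.11. That median was 0.08 in LADs of both lists and -0.37 outside both, and the sign of the former again depends on the constants of the maps.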

How the data were processed

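DamID was measured in 3 maps of MEFs, of which 2 were compared here. Reads were aligned with Bowtie to mm9, per the submitters' processing notes. How reads were filtered, ratios formed and LADs called is not given in the sources used here. Deposited log2 values, 1 for each GATC fragment, step as a log2 ratio of reads, fusion against Dam-only, each raised by 1e-05, and carry a constant that differs by map. Reads recovered from single-library fragments of up to 100 reads were whole within 0.02 in 100% of cases. A fragment more than 12 from the constant was read as single-library. Fragments at the constant (28.4% and 29.7%) have equal or no reads and stayed in. The authors' LAD lists hold starts and ends in bp, and positions are given 1-based.

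Fragments were matched by chromosome, start and end. Bins of 100 kb with at least 50% cover were averaged, weighting fragments by length. SEs are over fragments or borders. Spreads over 19 chromosomes describe variation along the genome. Members, stretches and rules were chosen with earlier results of these data known. Named stretches are the 8 longest in each direction and the longest of each class, and named bins the 3 largest differences each way whose sign held in fragments read in both libraries. The functions were tested on simulated data. Alternatives covered fragments, bins, offset, length limits and gaps. No mm9 gene annotation was used, so genes are not assigned. Python 3.11.15, numpy 2.4.6 and pandas 2.3.3 were used.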

Additional observations from a re-analysis of the deposited data

How the results depend on the processing

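With 1 map per side the spread between replicates is unknown. No paired analysis was possible because each group holds 1 library. Of the alternatives to the main values 45 kept them (counts and percents of bins within 1.5 times, other values within 1 SD over chromosomes or their 95% binomial interval) and 42 moved them, without a change of sign. The sign did turn for the median difference in LADs of both lists, as given above, and for 2 named stretches whose differences were under 2 SE. Without single-library fragments and fragments at the constant, the stretches at chr17:86583495-87143940 and chr2:127115846-127887204 went from 0.18 and 0.05 to -0.02 and -0.03, and with the constants subtracted to -0.19 and -0.32. The alternative on borders near fragment-free sequence was chosen after seeing the data.

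Without single-library fragments the median bin difference was -0.14, bins higher after LmnC RNAi 0.601% and lower 10.4%, the correlation 0.979, the contrasts 2.25 and 1.78, and the odd-to-even correlation of the difference 0.722. Without fragments at the constant as well, these were -0.20, 0.530%, 16.3%, 0.979, 2.51, 2.03 and 0.693. Unweighted means gave a median of -0.38, 19.2% of bins higher, a correlation of 0.960 and contrasts of 6.96 and 6.00. Bins of 50 kb gave 8.75% higher, a correlation of 0.949 and an odd-to-even correlation of 0.341, and bins of 250 kb 2.02%, 0.979 and 0.645. Subtracting the constants gave a median of -0.87 and 1.07% higher. Centring gave 19.6% higher and 24.3% lower, quantile normalization 16.7% and 16.9%, and a step of 1 log2 0.543% and 22.7%.

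Stretches of LmnC RNAi and LmnB1 RNAi alone numbered 470 and 522 from 50 kb and 88 and 123 from 200 kb. Shared borders were 54.6% within 25 kb, 63.2% within 50 kb, 36.5% in the lists as deposited and 36.4% without borders near fragment-free sequence. Agreement in the kind of library was 89.3% from 2 reads. The share in LADs and the Jaccard index stayed within 1 SD over chromosomes, and unmatched LADs within 1.5 times, under every alternative run for them. A limit of 50% of the LAD raised unmatched LADs from 147 to 168 after LmnC RNAi and from 121 to 155 after LmnB1 RNAi. The share is taken over fragments, so removing fragment-free sequence cannot change it. Removing stretches from 5 kb left every LAD value as with 10 kb. These outcomes are counted among the 45 that kept the main values. Depth limits single fragments (median 1 or 2 reads when read in 1 library) and single bins more than averages over LADs.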
